A study of Homo sapiens with 6 samples.

Results

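The transcription factors PHOX2A, HAND2, ISL1, GATA2, GATA3, TFAP2B, TBX2, INSM1 and KLF7 belong to the regulatory circuit of adrenergic neuroblastoma cells. They were found on the array by their gene symbols, and all 9 were among the 14883 genes with a symbol. Where a gene had several probe sets, the brightest by its mean of all 6 arrays stands for it. The cells were SK-N-BE(2), a MYCN-amplified line derived from a human neuroblastoma. They had received a pLKO lentivirus whose hairpin either silences nothing (NSC, n = 3) or targets BRG1 (shBRG1, n = 3), so neither group is an uninfected culture. BRG1, the product of SMARCA4, is an ATPase that drives SWI/SNF remodelling of chromatin. At 48 h of infection, 200 ng RNA of each sample went onto its own Affymetrix array, which gave log2 expression values per probe set. No probe set used here carried the symbol SMARCA4, so the depletion of the target was not analysed here and the samples are described by their labels.

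In the developing sympathetic nervous system these factors turn neural crest cells into noradrenergic neuroblasts. The homeodomain proteins PHOX2A and ISL1, HAND2 with its E-protein partners, and the GATA and AP-2 factors bind each other's enhancers and those of the genes for catecholamine synthesis, so that the circuit sustains itself. Neuroblastoma cells of the adrenergic state depend on it, whereas cells of the mesenchymal state express other factors, such as PRRX1 and AP-1 members. Enhancers of such circuits are sites where SWI/SNF complexes are known to work.

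The 9 factors had been chosen by their known role with the shBRG1 minus NSC differences and levels of these arrays in view, so their values are given as a description, without a test of each gene. In shBRG1, 7 of the 9 factors were lower in all 3 arrays than in any NSC array, and TBX2 and GATA3 were higher in all 3. The differences were small, from 1.16-fold (GATA3) to 1.5-fold (TBX2), and the median difference was -0.38 on the log2 scale against 0.01 over all genes. In the limma fit of all 14883 genes, 6 of the 9 lay past an adjusted p of 0.05 (5 lower, 1 higher), where 17.0% of all genes did (7.19% lower, 9.78% higher). The groups did not overlap for any of the 9, where this held for 35.5% of all genes (15.3% lower, 20.3% higher). Since the same difference had been known when the genes were listed, nothing is read from these counts.

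The stretches before the transcription start of PHOX2A, HAND2 and ISL1 are shown because these are 3 lower members whose single listed start is also the first base of the gene in the RefSeq table. The sequences are those of RefSeq on GRCh38.p14, 250 bases up to the base before the start, written 5′ to 3′ in the direction of transcription. PHOX2A lies on the minus strand at chr11:72244177-72244426, HAND2 on the minus strand at chr4:173530230-173530479 and ISL1 on the plus strand at chr5:51383198-51383447. Capitals mark GATA motifs (GATAA on either strand, the core letters read by GATA2 and GATA3), E-boxes (CANNTG, read by HAND2 and its partners) and GC boxes (GGGCGG on either strand, read by KLF and SP factors).
PHOX2A: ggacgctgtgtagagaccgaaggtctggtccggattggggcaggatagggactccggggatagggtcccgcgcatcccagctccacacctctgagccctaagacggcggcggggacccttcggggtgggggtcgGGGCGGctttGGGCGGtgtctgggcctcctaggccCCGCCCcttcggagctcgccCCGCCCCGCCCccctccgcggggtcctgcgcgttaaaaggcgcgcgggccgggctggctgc
HAND2: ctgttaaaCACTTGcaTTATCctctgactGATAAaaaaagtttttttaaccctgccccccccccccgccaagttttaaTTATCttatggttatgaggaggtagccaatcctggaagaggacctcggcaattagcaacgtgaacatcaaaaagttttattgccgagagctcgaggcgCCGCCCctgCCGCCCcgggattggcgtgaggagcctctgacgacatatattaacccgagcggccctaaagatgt
ISL1: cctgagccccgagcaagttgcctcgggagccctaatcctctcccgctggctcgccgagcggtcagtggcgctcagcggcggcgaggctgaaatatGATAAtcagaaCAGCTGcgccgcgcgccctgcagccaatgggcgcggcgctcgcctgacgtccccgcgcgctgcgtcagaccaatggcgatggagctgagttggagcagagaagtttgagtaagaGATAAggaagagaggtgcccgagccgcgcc

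The 3 stretches differed in these letters although all 3 genes were lower in shBRG1. HAND2 held 3 GATA motifs and ISL1 held 2, whereas PHOX2A held 0 in the form GATAA. The PHOX2A stretch does hold the letters GATAG, a form that was not searched. At least 1 GATA motif was found in 20.4% of the 35116 stretches of the same length before all listed starts, 2 or more in 3.87% and 3 or more in 0.67%. PHOX2A held 5 GC boxes, 2 of which share a base. Among all stretches 42.6% held at least 1 GC box and 4.15% held 5 or more. HAND2 held 2 GC boxes and ISL1 0. HAND2 and ISL1 each held 1 E-box, a motif found in 61.8% of all stretches. HAND2 also held the homeodomain letters TAATTA, found in 4.3% of all stretches, which overlap 1 of its GATA motifs. The AP-2 letters GCCNNNGGC were in 19.8% of all stretches and in 0 of these 3. The G+C share was 73.2% before PHOX2A, 65.2% before ISL1 and 49.6% before HAND2, against a median of 58.0% over all stretches. TFAP2B, also lower and with 1 listed start, has its stretch inside the gene in that table, so it is not printed. It held 0 of the motifs searched, with a G+C share of 40.8%. Starts were listed for 7 of the 9 factors, TBX2 and INSM1 being the other two. GATA3 had 6 listed starts, KLF7 4 and GATA2 2, and the array values do not tell which was used. Stretches of GATA3, which was higher, also included some with 5 GC boxes (G+C share 74.8% and 73.6%). A KLF7 stretch held 4 GC boxes. A match of letters does not show that a factor binds there.

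**Figure D1:**
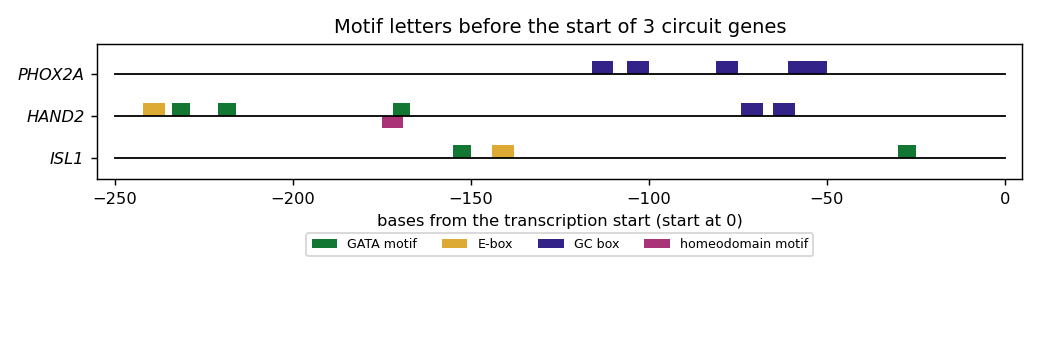
Positions of motif letters in the 250 bases before the transcription start of PHOX2A, HAND2 and ISL1, in bases from the start, with the homeodomain motif drawn below the line. HAND2 and ISL1 carry 3 and 2 GATA motifs in the form GATAA, and PHOX2A carries 5 GC boxes.

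PHOX2A is a homeodomain factor that switches on genes of the noradrenergic programme. Its log2 values were 8.94, 8.86 and 8.83 in NSC and 8.42, 8.31 and 8.38 in shBRG1. All 3 shBRG1 arrays were below all NSC arrays, and the gap between the groups was wider than the range within either. The mean was lower, going from 8.88 ± 0.06 to 8.37 ± 0.06 (SD, n = 3), a difference of -0.51 (SE 0.07) or 1.42-fold. HAND2, the basic helix-loop-helix factor of sympathetic neuroblasts, measured 9.26, 9.27 and 9.19 in NSC and 8.89, 8.88 and 8.81 in shBRG1. Its arrays were tight in both groups and did not overlap, with a difference of -0.38 (SE 0.07).

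ISL1 encodes a LIM-homeodomain factor needed for sympathetic neuron differentiation and was the only member with 2 probe sets. The brighter one read 9.93, 9.89 and 9.97 in NSC and 9.43, 9.61 and 9.43 in shBRG1. Those values did not overlap, and the difference was -0.44 (SE 0.08). The dimmer probe set read 6.83, 6.88 and 6.87 in NSC against 6.82, 6.86 and 6.82 in shBRG1. Here the groups overlapped, and the difference was -0.03. With both probe sets averaged, the difference of ISL1 was -0.23, so its size depends on the probe set.

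The GATA zinc finger factors GATA2 and GATA3 went in opposite directions. GATA2 read 9.40, 9.26 and 9.28 in NSC and 8.71, 8.93 and 8.81 in shBRG1. Its groups were well apart, with a difference of -0.50 (SE 0.08) or 1.41-fold. GATA3 read 9.20, 9.24 and 9.30 in NSC and 9.43, 9.51 and 9.44 in shBRG1. All 3 shBRG1 values of GATA3 were above the NSC values, by a difference of 0.21 (SE 0.07). GATA3 was 1 of the 3 factors that did not lie past the threshold.

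TFAP2B, the AP-2 factor of the circuit, read 8.77, 8.65 and 8.75 in NSC and 8.43, 8.50 and 8.41 in shBRG1. The difference was -0.28 (SE 0.07), and the groups did not overlap. TBX2, a T-box repressor that promotes proliferation of neuroblastoma cells, was higher in shBRG1, as was GATA3. It read 6.34, 6.18 and 6.42 in NSC and 6.76, 7.0 and 6.94 in shBRG1. Its mean went from 6.31 ± 0.12 to 6.90 ± 0.13 (SD, n = 3), a difference of 0.59 (SE 0.10) or 1.5-fold. TBX2 and GATA3 were higher in shBRG1 under all 13 alternative fits run, and the other 7 factors were lower in each fit that tested them.

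INSM1, a zinc finger repressor of early neuroendocrine cells that recruits the CoREST complex, was dim and uneven. It read 4.83, 4.88 and 4.71 in NSC and 4.10, 4.62 and 4.55 in shBRG1, with array medians of all probe sets between 3.77 and 3.84. The first shBRG1 array stood below the others, and without it the difference of -0.38 (SE 0.14) was -0.22. KLF7, a Krüppel-like factor that acts in sensory and sympathetic neurons, read 10.87, 10.84 and 10.80 in NSC and 10.52, 10.70 and 10.58 in shBRG1. Its groups did not overlap and differed by -0.23 (SE 0.07). INSM1 and KLF7 did not lie past the threshold.

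**Figure D2:**
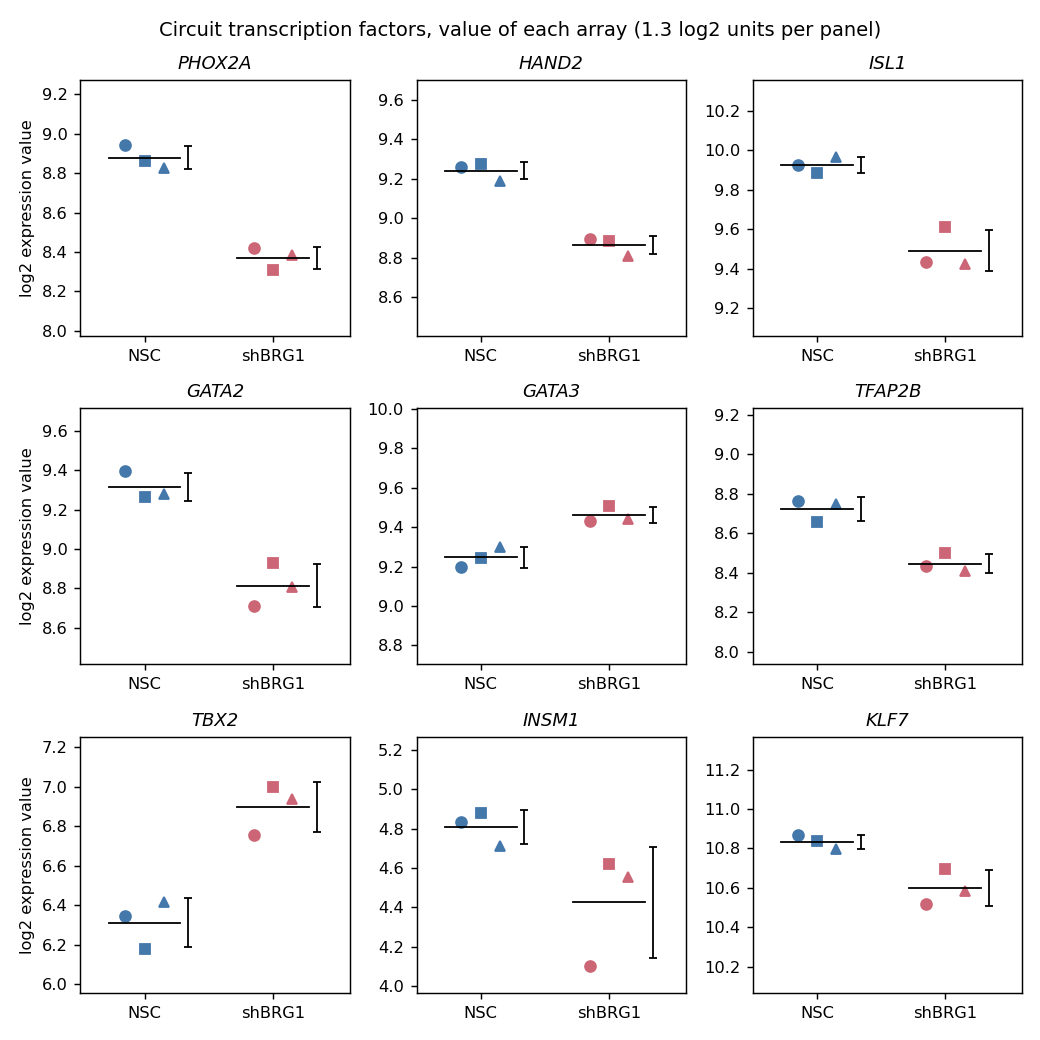
Log2 expression value of each of the 9 factors in each array, with circles, squares and triangles for replicates 1, 2 and 3, the group mean as a line and 1 SD as a bar (n = 3). The groups do not overlap in any panel, and TBX2 and GATA3 are the factors with the higher shBRG1 values.

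Within shBRG1 the factors did not all rank the arrays alike. Replicate 1 had the lowest value of all 6 arrays for 3 factors (GATA2, INSM1 and KLF7), replicate 3 for 3 (HAND2, ISL1 and TFAP2B) and replicate 2 for PHOX2A. Replicate 2 had the highest value for both factors that were higher, TBX2 and GATA3. For GATA2, ISL1, TFAP2B, INSM1 and KLF7 replicate 2 was also the shBRG1 array nearest to NSC. Over the alternative fits the differences ranged from -0.56 to -0.48 for PHOX2A, from -0.56 to -0.45 for GATA2 and from 0.52 to 0.66 for TBX2.

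**Figure D3:**
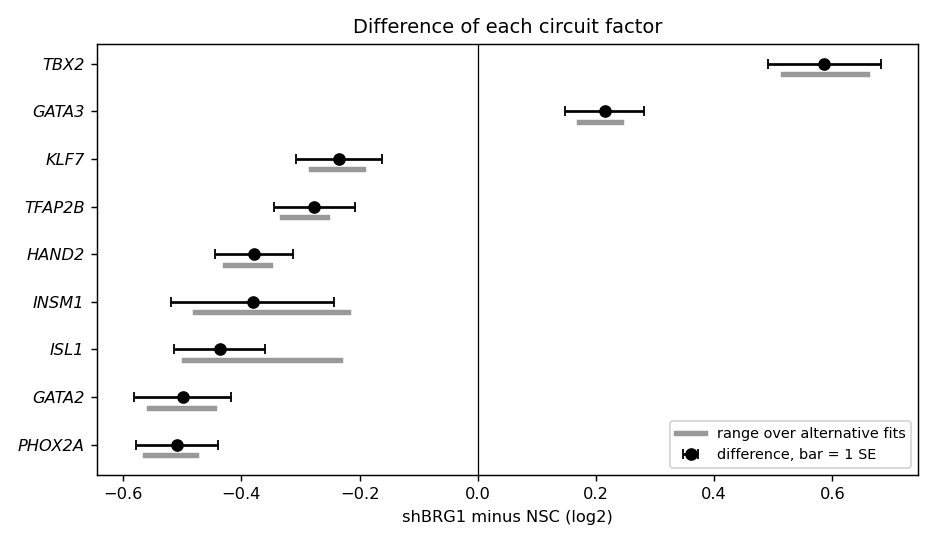
Difference between the mean of shBRG1 and the mean of NSC for each factor on the log2 scale, with 1 SE as the bar and, in grey below, the range over the alternative fits. The grey lines of ISL1 and INSM1 reach up to -0.23 and -0.22, and INSM1 has the longest error bar (SE 0.14).

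The genes whose 6 values ran closest to PHOX2A, measured as the root mean square difference over the 6 arrays after subtraction of each gene's NSC mean, were GFPT1 (0.02), BLZF1 (0.03) and CHGA (0.04). GFPT1 encodes the first enzyme of the hexosamine pathway, BLZF1 a Golgi protein and CHGA the granule protein chromogranin A. Their differences were -0.51, -0.53 and -0.48. The closest to TBX2 were CLPB (0.04), ASB13 (0.04) and ZNF506 (0.04), with differences of 0.57, 0.57 and 0.61. The ranking covered 7206 genes at or above the level of the median gene, and a difference between the hairpins of the same size is enough to bring a gene near the top.

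Genes that were not among the 9 were tested in the fit of all genes. Their lists were chosen with earlier results of these data known, so the shares past the threshold are a description. The share over all genes includes dim genes. With dim genes left out, only genes at or above the level of the median gene were tested, and 3201 passed instead of 2525. More genes passed among fewer tested, so the share past the threshold was well above 17.0% there. The filtered counts of the lists below are therefore not comparable with the 17.0%. Whether the listed genes differ from equally bright genes was not tested. Of 34 other listed factors of the sympathetic lineage 28 were measured, and 3 of them fell and 2 rose past the threshold (17.9%, against 17.0% of all genes). Their median difference was -0.03. HEY1, a repressor downstream of Notch, fell from 7.01 ± 0.09 to 6.26 ± 0.11 (SD, n = 3; difference -0.75, SE 0.09, adjusted p = 0.0018). The homeodomain cofactor MEIS1 rose (0.52, SE 0.09, adjusted p = 0.0098). MEIS2 (0.27) rose too, and LHX1 (-0.38) and the zinc finger factor ZNF536 (-0.37) fell, all with an adjusted p between 0.023 and 0.029.

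HAND1, the paralogue of HAND2, read 10.50, 10.32 and 10.39 in NSC and 9.97, 10.25 and 10.05 in shBRG1. Its groups did not overlap, but the difference of -0.32 (95% interval -0.54 to -0.10) did not pass (adjusted p = 0.059). It passed under 6 of 13 alternative fits, including both other scalings, with adjusted p-values from 0.0039 to 0.16 over all of them. EYA1, a transcriptional coactivator, had a difference of -0.20 (95% interval -0.35 to -0.05, adjusted p = 0.073), which passed after cyclic loess, with dim genes left out, and with trend and robust options (0.00074 to 0.18 over the alternatives). SOX11 (-0.10, 95% interval -0.35 to 0.16) and SATB1 (0.15, -0.23 to 0.53) were dim and did not pass. MYCN was not analysed here. The count of 5 in this list was 2 without NSC replicate 3 or shBRG1 replicate 1, and 3 without NSC replicate 1 or 2 or shBRG1 replicate 2. Of the 28, 23 were at or above the level of the median gene, and with dim genes left out 8 of these 23 passed. With trend and robust options the count was 9. MEIS2 lost its call without any 1 of the 6 arrays, after cyclic loess and with its probe sets averaged (adjusted p 0.0043 to 0.15 over the alternatives). LHX1 lost it when any single array other than NSC replicate 1 or shBRG1 replicate 3 was left out (0.023 to 0.078), and ZNF536 when any other than NSC replicate 2 or shBRG1 replicate 3 was (0.0050 to 0.088).

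Partners of the circuit factors that passed the threshold included genes that rose and genes that fell. Of 23 measured of 37 listed cofactors, 4 rose and 2 fell (26.1%, against 17.0% of all genes), with a median difference of 0.01. Of the 23, 19 were at or above the level of the median gene, and with dim genes left out 8 of these 19 passed. RCOR1, the scaffold of the CoREST repressor complex, fell most, from 9.16, 9.04 and 9.02 in NSC to 8.14, 8.31 and 8.34 in shBRG1. The groups were far apart, and the difference was -0.81 (SE 0.08, 1.75-fold, adjusted p = 0.0012). KDM1A, the histone demethylase of the same complex, read 9.39, 9.37 and 9.32 in NSC and 9.68, 9.63 and 9.59 in shBRG1, a rise of 0.27 (SE 0.07, adjusted p = 0.030). GSE1, a protein known to associate with that complex, rose by 0.29 (adjusted p = 0.029).

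TCF4, an E-protein that pairs with HAND2 and other basic helix-loop-helix factors, fell from 9.10 ± 0.05 to 8.69 ± 0.04 (SD, n = 3; difference -0.42, SE 0.07, adjusted p = 0.0059). The other E-protein genes gave -0.15 for TCF3 (adjusted p = 0.17) and 0.00 for TCF12 (adjusted p = 0.99), named after their values were seen. Among the bridging proteins of LIM factors such as ISL1, LDB2 rose (0.47, SE 0.09, adjusted p = 0.012) and LDB1 had a difference of 0.15 (95% interval 0.01 to 0.30, adjusted p = 0.15). LDB1 passed with dim genes left out and with trend and robust options. SSBP4, which stabilises LDB proteins, rose by 0.33 (adjusted p = 0.017). The LIM-only genes LMO1 (0.08), LMO3 (0.13) and LMO4 (0.01) did not pass, with LMO1 and LMO3 below the array medians.

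The count of 6 cofactors was 3 without NSC replicate 2 or 3 or shBRG1 replicate 3. It was 9 with trend and robust options, 6 higher and 3 lower. KDM1A lost its call without any 1 of the 6 arrays (adjusted p 0.00051 to 0.097 over the alternatives), GSE1 without any 1 of 5, NSC replicate 1 excepted (0.0018 to 0.093), and SSBP4 without NSC replicate 2 or 3 or shBRG1 replicate 3 (0.0014 to 0.065). RCOR1, TCF4 and LDB2 kept theirs under all 13 alternative fits.

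The enzymes TH, DDC and DBH, which make noradrenaline, did not pass the threshold, whereas GCH1 and the peptide genes VIP and GAL fell. TH, the rate-limiting enzyme of catecholamine synthesis, read 7.66, 7.52 and 7.63 in NSC and 7.69, 7.65 and 7.80 in shBRG1. The arrays overlapped, and the difference was 0.11 (95% interval -0.07 to 0.28, adjusted p = 0.39). DDC, the next enzyme, had a difference of 0.06 (95% interval -0.09 to 0.21), and DBH, which makes noradrenaline and is a textbook target of PHOX2A, one of 0.08 (-0.08 to 0.24). GCH1, which supplies the cofactor of TH, fell by 2.21 on the log2 scale.

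Genes of peptides and granule proteins were divided between some that fell and some that did not pass. The neuropeptide gene VIP read 10.71, 10.65 and 10.69 in NSC and 9.75, 9.76 and 9.69 in shBRG1. The arrays of each group lay close together, and the fall was 1.93-fold (-0.95, SE 0.06, adjusted p = 2.9e-04). GAL, which encodes galanin, read 11.15, 11.13 and 11.30 against 10.23, 10.34 and 10.36, a 1.84-fold fall (-0.88, SE 0.08, adjusted p = 6.5e-04). The granule genes SCG2 (-1.65) and CHGA (-0.48) fell as well, and so did CYB561 (-0.42), the cytochrome that renews ascorbate inside the granule for DBH. The peptide gene NPY (0.07, adjusted p = 0.79) and the granule gene SCG5 (0.29, adjusted p = 0.068), named after their values were seen, did not pass, though SCG5 passed with dim genes left out and with trend and robust options (adjusted p 0.023 to 0.17 over all 13 fits). Of 21 measured genes of 32 listed in this group, 8 fell and 0 rose by limma (9 and 1 at an unadjusted p under 0.05). That is 38.1%, against 17.0% of all genes, of which 7.19% fell, and the median difference was -0.04. The list was chosen with earlier results of these data known, so nothing is read from this share. Of the 21, 18 were at or above the level of the median gene, and with dim genes left out 9 of these 18 passed. With trend and robust options 2 rose, and with dim genes left out 1. The 8 were 5 without NSC replicate 3, shBRG1 replicate 1 or shBRG1 replicate 3, and CYB561 lost its call without any of these or NSC replicate 2 (adjusted p 0.00038 to 0.056 over the alternatives).

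**Figure D4:**
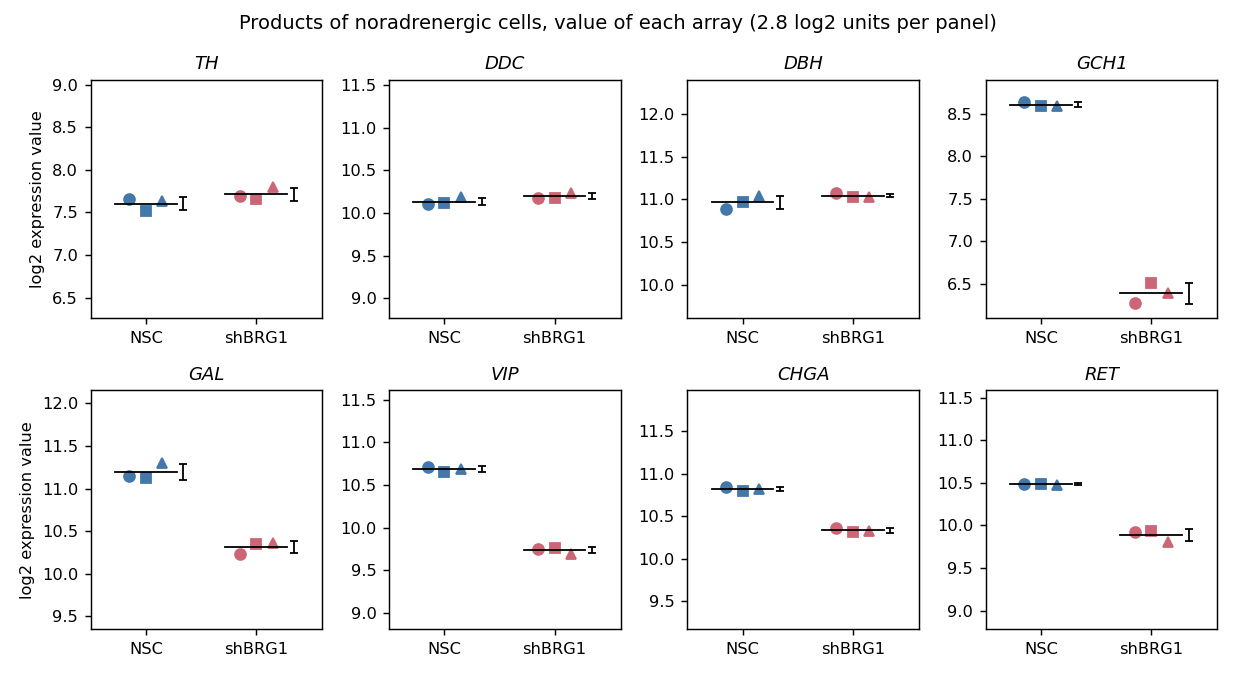
Log2 expression values of the synthesis enzymes TH, DDC, DBH and GCH1, the peptide genes GAL and VIP, the granule gene CHGA and the receptor RET in each array, with the group mean as a line and 1 SD as a bar (n = 3). TH, DDC and DBH overlap between the groups, and in the other 5 panels all shBRG1 values are below NSC.

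Receptors of the adrenergic state were among the genes that fell. RET, the GDNF family receptor kinase, and ALK, the kinase mutated in some neuroblastomas, fell by 0.59 and 0.55 on the log2 scale (adjusted p = 0.0017 and 0.0059). ALK was dim, at 4.70, 4.79 and 4.76 in NSC and 4.08, 4.36 and 4.16 in shBRG1, and its arrays did not overlap. The imprinted gene DLK1 fell by 0.43 with an adjusted p of 0.0041, and the adhesion gene CADM1 (-0.31) and DPYSL3 (-0.40) fell with adjusted p-values of 0.021. LIN28B, the let-7 inhibitor, rose by 0.41 (adjusted p = 0.0059). The receptor kinase gene LTK, named after its values were seen, rose by 0.24 (adjusted p = 0.047). LTK lost its call without any 1 of the 6 arrays, and after median centring or cyclic loess. In all, 6 of 25 measured genes of 37 listed fell and 2 rose (32.0%, against 17.0% of all genes), with a median of -0.01. Of the 25, 19 were at or above the level of the median gene, and with dim genes left out 8 of these 19 passed. The 8 calls in the fit of all genes were 4 without NSC replicate 2 or shBRG1 replicate 1, and 5 without any 1 of the other 4 arrays. CADM1 lost its call when any single array other than shBRG1 replicate 3 was left out (0.0010 to 0.070), and DPYSL3 without NSC replicate 2 or shBRG1 replicate 1 or 3 (0.0039 to 0.073).

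Factors of the mesenchymal state that passed the threshold were lower. Of 32 measured of 37 listed, 8 fell and 0 rose by limma (10 and 1 at an unadjusted p under 0.05), which is 25% against 17.0% of all genes, with a median of -0.08, and 1 rose after cyclic loess or with array weights. The AP-1 genes FOSL2 (-0.56, adjusted p = 0.0030) and JUNB (-0.51, adjusted p = 0.0077) fell. SOX9 fell from 8.04 ± 0.08 to 7.55 ± 0.04 (SD, n = 3; -0.49, adjusted p = 0.0042), and so did SNAI2 (-0.47) and ZEB1 (-0.35), repressors known from epithelial to mesenchymal transition. PRRX1, a leading factor of the mesenchymal state, was dim at 3.56 ± 0.15 in NSC and 3.88 ± 0.05 in shBRG1 (SD, n = 3), a difference of 0.32 (95% interval 0.10 to 0.53, adjusted p = 0.052) that passed after cyclic loess and with array weights (0.036 to 0.15 over the alternatives). YAP1, a coactivator of the Hippo pathway, was likewise dim, with a difference of -0.21 (-0.43 to 0.01). IRF1 (-0.33) fell from values below the array medians and lost its call when any single array other than shBRG1 replicate 2 was left out, and with trend and robust options (0.018 to 0.085). Of the 32, 15 were at or above the level of the median gene, and with dim genes left out 7 of these 15 passed. The 8 calls in the fit of all genes were 5 without NSC replicate 1 or shBRG1 replicate 3.

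**Figure D5:**
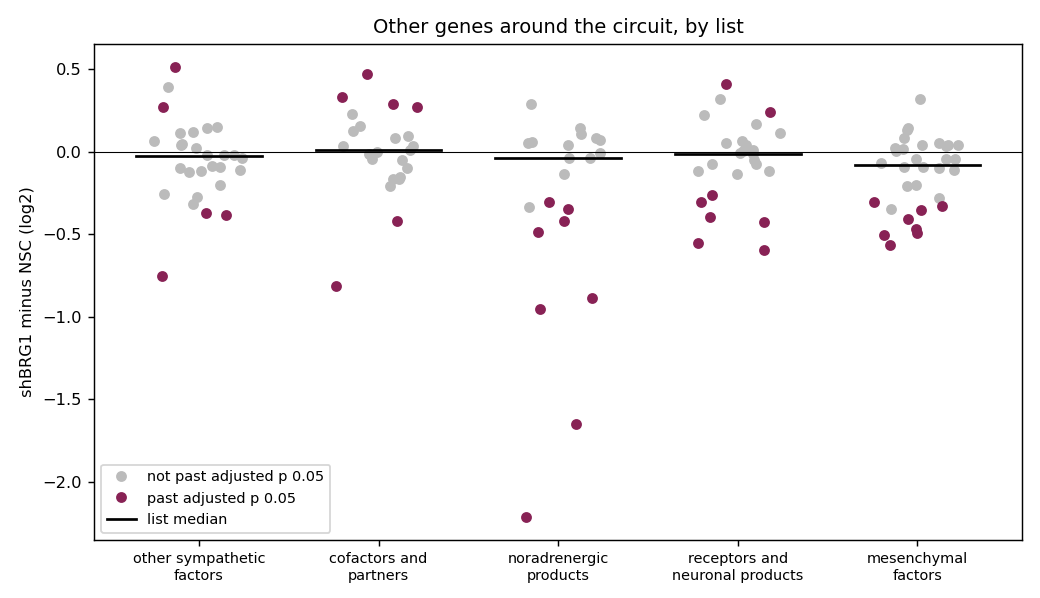
Difference between shBRG1 and NSC on the log2 scale for each measured gene of 5 lists around the circuit, coloured where the adjusted p was under 0.05, with the list median as a line. The medians lie between -0.08 and 0.01, and the lowest points are GCH1 and SCG2 among the noradrenergic products.

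Markers of the labelled cell type were bright, with all 9 measured adrenergic neuroblast markers at mean log2 values from 7.66 to 11.3. Their summed level was 13.39 to 13.41 in NSC and 13.20 to 13.23 in shBRG1 (log2 of the sum), a measure that the brightest genes dominate. The markers did not move as a set. RET, CHGA, DLK1 and CHGB fell past the threshold, though CHGB (-0.30) did not keep its call in every alternative fit. The other 5 did not pass. Of these PRPH (0.22), TH (0.11), DBH (0.08) and STMN2 (0.07) were higher in shBRG1, and GAP43 (-0.08) was lower. Of the 7 measured endothelial markers 6, and of the 7 Schwann and glial markers 5, were below the median gene. The summed level of the Schwann and glial markers was 7.29 to 7.33 in NSC and 7.15 to 7.23 in shBRG1. Among them the dim FOXD3 (-0.24, adjusted p = 0.041) lay past the threshold, but in 3 of 12 alternative fits only (0.034 to 0.12), while the differences of SOX10 (-0.29) and S100B (-0.41) had adjusted p-values of 0.053 and 0.072. MBP (-0.18), ERBB3 (-0.15), GFAP (0.19) and NGFR (0.04) did not pass either, the last 2 being higher in shBRG1. The summed level of 3 fibroblast markers was 9.03 to 9.20 and 9.25 to 9.44, with DCN (0.44) and LUM (0.39) past the threshold, though LUM lost its call when NSC replicate 2, NSC replicate 3, shBRG1 replicate 1 or shBRG1 replicate 2 was left out. The third, THY1 (-0.07, adjusted p = 0.58), did not pass, and 0 of the 3 were below the median gene. The summed levels of blood cell markers (3 measured) and of adrenal cortex markers (2 measured) overlapped between the groups. The part of these shifts in the values of the 9 factors was not tested. In a bulk culture, fewer cells of a type and less RNA per cell cannot be told apart. The labels speak of triplicate transductions and not of how separate they were. The spread behind the p-values is thus that of these samples and may be technical.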

How the data were processed

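Total RNA of 6 SK-N-BE(2) samples was measured on 1 single-colour Affymetrix array each. The authors deposited log2 values, 1 per probe set and array. R 3.1.0, oligo 1.27, RMA and limma 3.19 stand in the submitters' processing notes. RMA gives all arrays a common distribution, which hides a shift of the whole transcriptome and can understate changes of dim probe sets. Differences were taken within each gene. Levels of different probe sets depend on their probes, and they serve only as a rough guide to which genes are dim. Scanner files and batches were not used here.

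Of 52299 probe sets, 15828 carried 1 gene symbol, brought up to date through gene identifiers, 0 several and 36471 none. The brightest probe set per gene was kept, which left 14883 genes. The shBRG1 and NSC arrays were compared by limma 3.58.1 under R 4.3.3 for all of them (lmFit, eBayes, two-sided, no covariates), with Benjamini-Hochberg adjustment over all genes and a threshold of 0.05. With 3 arrays against 3 the smallest two-sided p of an exact permutation test is 0.1. The fit was tested on simulated data.

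The 9 members, the 5 pathway lists and the 6 marker lists were chosen with earlier results of these data known. The text names all members, up to 6 genes past the threshold per pathway list, and a set of genes listed by name (such as TH, DBH, HAND1, LMO1 and PRRX1) whatever their values. It also names the 3 genes most like PHOX2A and TBX2. Other genes are marked where they were picked after their values were seen, as were DCN, LUM, FOXD3, SOX10 and S100B. LTK, THY1, MBP, ERBB3, GFAP, NGFR, CHGB, PRPH, STMN2 and GAP43 were added later, also with their values seen. Sequences are RefSeq's. Alternatives are in the closing section. The number of arrays limits the precision. Plots were made in Python 3.11.15 with matplotlib 3.10.9.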

Additional observations from a re-analysis of the deposited data

How the results depend on the processing

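Alternatives were 2 other scalings, a filter on dim genes, averaged probe sets, trend and robust options, array weights, a replicate block, each array left out in turn, and an adjusted p of 0.01. The 6 of 9 factors past the threshold were 5 to 8 under all of them, and 5 to 6 with 1 array left out. PHOX2A, HAND2, GATA2 and TBX2 stayed past it in all 13 alternative fits, ISL1 in 12 (not with averaged probe sets), TFAP2B in 7, KLF7 in 3 and GATA3 in 2, and INSM1 in 0 of 12.

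Over all genes, the 2525 calls were 1604 to 1840 with 1 array left out, 1608 with the replicate block and 1086 at an adjusted p of 0.01. At 0.01 the lists kept 2 other sympathetic factors, 2 cofactors, 5 noradrenergic products, 4 receptors and neuronal products, and 4 mesenchymal factors. With 1 array left out these numbers were 2 to 4, 3 to 5, 5 to 7, 4 to 5 and 5 to 7. Other sympathetic factors numbered 8 with dim genes left out and 9 with trend and robust options. Same-numbered arrays showed no shared deviation (correlation of deviations from the group means -0.044, -0.144 and -0.033). With 3 arrays per group, such correlations cannot decide whether same-numbered samples were made together, which the labels do not say. With the replicate block 5 of the 9 factors, 3 cofactors, 5 receptors and neuronal products, and 5 mesenchymal factors were past the threshold. MEIS2, KDM1A, GSE1, SSBP4, CADM1, CHGB, LTK, IRF1 and FOXD3 lost their calls with it.

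Signs turned only for small differences that did not pass. With 1 array left out, SATB1 ranged from -0.018 to 0.275, LMO4 from -0.065 to 0.091, NPY from -0.027 to 0.210 and INPPL1 from -0.011 to 0.154. LMO4 was -0.0036 after median centring, -0.0032 after cyclic loess and -0.0099 with array weights, and INPPL1 was -0.011 after cyclic loess. Of 29 genes named by the rule for the pathway lists that were past the threshold, 19 stayed past it in every alternative fit that tested them. Dim genes (INSM1, ALK, IRF1, PRRX1, LMO1) are limited by background.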

Other observations

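The nearest measured gene to each of the 9 factors in the RefSeq gene table was looked up by a rule added after the values were seen. Of these 9 neighbours 2 were past the threshold, where 17.0% of all genes were. BCAS3, next to TBX2, read 6.42, 6.44 and 6.43 in NSC and 6.98, 7.21 and 7.01 in shBRG1, a rise of 0.63 (SE 0.08, adjusted p = 0.0025) beside the 0.59 of TBX2. The non-coding LOC90246, next to GATA2, rose from 5.0 ± 0.17 to 6.01 ± 0.18 (SD, n = 3; 1.01, SE 0.12, adjusted p = 0.0020), whereas GATA2 was lower. Both kept their calls in all 13 alternative fits.

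HAND2-AS1, the non-coding RNA that overlaps HAND2 in the table, read 9.67, 9.62 and 9.63 in NSC and 9.70, 9.67 and 9.68 in shBRG1. Its difference of 0.05 (95% interval -0.10 to 0.19, adjusted p = 0.69) stands beside the -0.38 of HAND2. GATA3-AS1 (0.16, 95% interval -0.16 to 0.47), ISL1-DT (0.28, -0.09 to 0.66), MIR2355 within KLF7 (0.30, 0.05 to 0.54, adjusted p = 0.099) and INPPL1, which overlaps PHOX2A (0.06, -0.16 to 0.28), did not pass. TFAP2D (-0.10) and CFAP61 (0.12), next to TFAP2B and INSM1, did not pass either. ISL1-DT was past the threshold without NSC replicate 1 (adjusted p 0.05 to 0.61 over the alternatives). Whether probe sets of overlapping genes share signal was not tested.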
